A study of Mus musculus with 23 samples.

Results

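Colonies grown from 2 mouse models of head and neck cancer were compared by RNA sequencing: 2 libraries of SCCVII colonies against 3 libraries of HPV-negative MEER colonies, 5 of the 23 libraries of the series. The libraries were chosen by their labels, which describe both groups as macrophage progenitor colonies. SCCVII is a squamous carcinoma line grown in C3H/HeJ mice. HPV-negative MEER is an oropharyngeal epithelial line that the labels give as negative for papillomavirus, grown in C57/Bl6 mice. In both models, macrophages had been sorted from subcutaneous tumours by high F4/80 together with CD45 and CD11b, leaving out Gr1-positive cells, and were then plated for 9 days in a medium made for haematopoietic stem cells. No drug or genetic treatment is named for any group. Each colony library is a separate biological preparation per the labels, but each model is a single tumour line in a single mouse strain. The SCCVII colonies were deposited in 1 table with all macrophages and lines, and the HPV-negative colonies in a table of their own. Strain, tumour line and table therefore change together in this comparison, and their parts cannot be told apart. The sorted macrophages (3 libraries per model, each pooled from 3 to 4 mice) and the cultured tumour cells (3 libraries per model) served as references. Each line library is 1 aliquot of a culture, and p-values between lines cover only how far aliquots vary.

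Macrophages are tissue phagocytes of the myeloid lineage. They depend on the receptor for colony-stimulating factor 1 (Csf1r), are recognised by F4/80 (Adgre1), and carry CD45 (Ptprc) and CD11b (Itgam) on their surface. A colony assay asks whether a plated cell can divide and give rise to a clone. Carcinoma cells in the same dish would be told from myeloid cells by matrix, keratin and growth factor genes and by the lack of CD45.

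Depth was 29311677 to 47609481 expected counts in the HPV-negative colonies and 28136747 to 31993125 in the SCCVII colonies. Levels are CPM, the count of a gene relative to the library's total, scaled by the TMM method over all 23 libraries, and a log2 change is always SCCVII over HPV-negative MEER, given ± its standard error (SE). A gene was called where the adjusted p of edgeR's quasi-likelihood test was below 0.05. The biological coefficient of variation, the spread between libraries of a group, was 51.9% in colonies, 17.7% in macrophages and 14.9% in lines.

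The labelled cell type was checked first, because the libraries stood apart from one another in the genes that define it. Adgre1, which encodes F4/80 (GRCm38 chromosome 17, 57358691 to 57483527), held 1240, 2.84 and 0.0302 CPM in HPV-negative colonies 1, 2 and 3 and 140 and 5.19 CPM in SCCVII colonies 1 and 2. Csf1r held 558, 5.21 and 0.663 CPM against 91.0 and 10.1 CPM. The first library of each group was high and the others were low, so the groups overlapped. Sorted macrophages averaged 829 and 990 CPM of Adgre1 and 3070 and 3080 CPM of Csf1r in HPV-negative MEER and SCCVII, in that order. Ptprc was 149, 2.72 and 0.392 CPM against 113 and 3.78 CPM. Itgam was 821, 7.81 and 0.332 CPM against 42.8 and 9.30 CPM. Kit, the stem cell factor receptor of blood progenitors, was at 0.800 CPM in HPV-negative colony 1 and at or below 0.0300 CPM in the other 4 libraries. None of the macrophage genes Adgre1, Csf1r, Ptprc, Itgam, Lyz2 and Cd68 was called between the groups. Of 13 macrophage markers tested, 1 was called lower and none higher in SCCVII colonies, beside 10.5% and 10.8% of all genes. Their median log2 change was -1.89, but 3.36 over the 10 tested without HPV-negative colony 1 and -4.28 over the 15 tested without SCCVII colony 1.

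**Figure D1:**
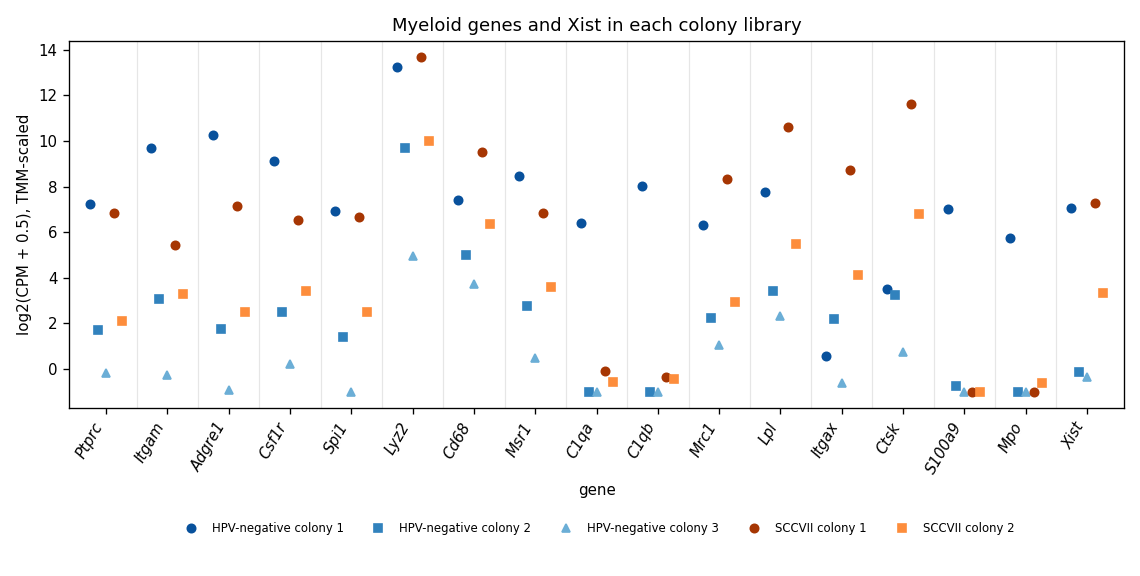
Levels of 16 myeloid genes and Xist in each of the 5 colony libraries, as log2 of TMM-scaled CPM plus 0.5 on the vertical axis, with 1 point per library. For Adgre1 and Csf1r the first library of each group stands far above the others, from 1240 against 2.84 and 0.0302 CPM to 140 against 5.19 CPM for Adgre1.

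A wider set told the same of each library. It took 174 genes with at least 50 CPM in every macrophage library of both models and at most 1 CPM in every line library of both. Set against HPV-negative macrophages, the median of these genes in HPV-negative colony 1 was 22.5%, and 134 of the 174 reached 10%. In HPV-negative colonies 2 and 3 the medians were 0.444% and 0.0642%, with 5 and 3 genes at 10% or more. SCCVII colony 1 stood at 11.9% of SCCVII macrophages (95 genes at 10% or more) and SCCVII colony 2 at 0.751% (6 genes). In bulk RNA, fewer cells of a type and less RNA per cell cannot be told apart.

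Transcripts particular to each cultured line were present in every colony library of that model. Of 33 genes with at least 50 CPM in every SCCVII line library, and at most 10% of that line's mean in any library of the HPV-negative line or of the macrophages of either model, the median stood at 92.0% and 101% of the SCCVII line in SCCVII colonies 1 and 2. In HPV-negative colonies 1, 2 and 3 the same genes stood at 3.45%, 3.76% and 3.56%. The 22 genes that mark the HPV-negative line in the same way had medians of 48.3%, 75.3% and 82.6% of that line in the HPV-negative colonies, and 0.768% and 0.594% in the SCCVII colonies. HPV-negative colony 1, the richest in macrophage transcripts, was the lowest of its group in line transcripts. Across 16675 genes, log expression of HPV-negative colonies 2 and 3 had Pearson correlations of 0.917 and 0.928 with their line and 0.745 and 0.728 with their macrophages. SCCVII colony 2 had 0.931 with its line and 0.778 with its macrophages. The libraries with more macrophage transcripts lay between, at 0.870 and 0.869 for HPV-negative colony 1 and at 0.877 and 0.822 for SCCVII colony 1. These correlations run across genes, which are not independent replicates. The measured transcriptomes thus went against the label of macrophage progenitors in 3 of the 5 libraries, and the groups are called colonies below only by their label.

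**Figure D2:**
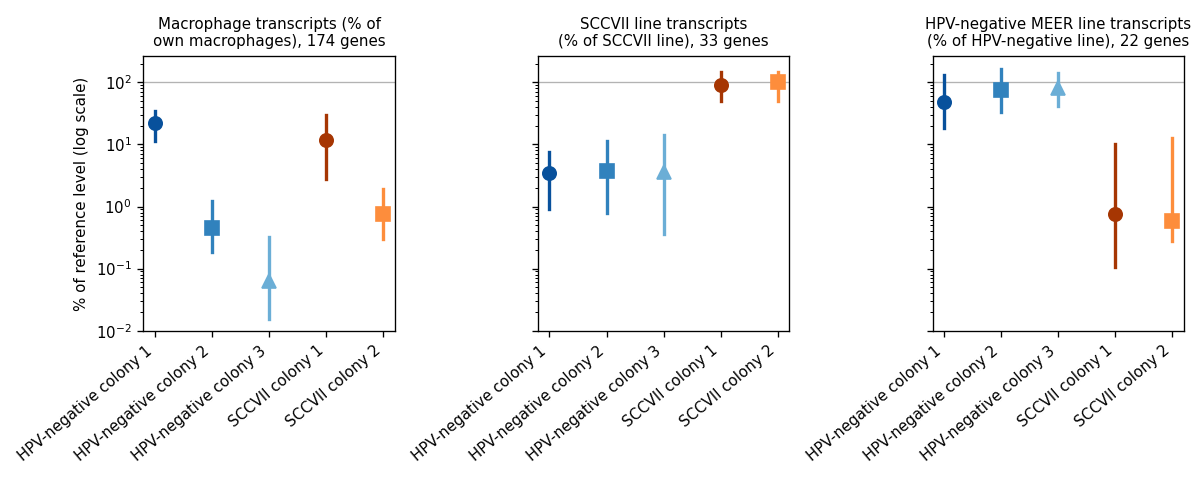
Median level of 3 gene sets in each colony library as a percent of a reference group, on a log axis, with bars from the lower to the upper quartile over genes. The line sets separate the models, at 92.0% and 101% in SCCVII colonies against 3.45% to 3.76% for the SCCVII set, while the macrophage set separates the first library of each group, at 22.5% and 11.9%, from the rest.

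The first libraries also differed from each other in their markers of myeloid cell types. HPV-negative colony 1 held the complement genes of tissue macrophages, with C1qb, a chain of the C1q recognition protein, at 256 CPM against at most 0.273 CPM in the other 4 libraries. It also held granule genes of neutrophils and their precursors, with S100a9 at 127 CPM and Mpo, the myeloperoxidase, at 53.5 CPM, against at most 0.0877 and 0.150 CPM elsewhere. The 14 neutrophil markers summed to 689 CPM there. SCCVII colony 1 instead held Ctsk, the collagen-cleaving cathepsin of osteoclasts, at 3120 CPM, against 109 CPM in SCCVII colony 2 and 1.15 to 11.0 CPM in the HPV-negative colonies. Its Itgax, which encodes CD11c, stood at 421 CPM and its Atp6v0d2, a proton pump subunit of osteoclasts and macrophages, at 582 CPM, while in the other 4 libraries these held 0.151 to 16.7 and 0.784 to 25.9 CPM. The 10 osteoclast markers summed to 3880 CPM in SCCVII colony 1, 214 CPM in SCCVII colony 2 and 20.0 to 300 CPM in the HPV-negative colonies. Of the 6 tested, Ctsk and Itgb3, an integrin chain, were called higher and none lower, beside 10.8% and 10.5% of all genes. Without HPV-negative colony 1 the number called higher was 4, and without HPV-negative colony 2 or 3 it was 1. The median log2 change went from 2.95 to 0.25 without SCCVII colony 1. The defining markers Calcr and Ocstamp were at 0 and at most 0.309 CPM in all 5 libraries. Mrc1, the mannose receptor of alternatively activated macrophages, was 326 CPM in SCCVII colony 1 and 79.8 CPM in HPV-negative colony 1, and 1.54 to 7.26 CPM in the other 3.

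Xist, the RNA of the inactive X chromosome in female cells (chromosome X, 103460366 to 103483254), gave a further check on the origin of the cells. It held 134, 0.409 and 0.271 CPM in HPV-negative colonies 1, 2 and 3 and 154 and 9.45 CPM in SCCVII colonies 1 and 2. The sorted macrophages held 0.0311 CPM in HPV-negative MEER and 349 CPM in SCCVII, and the lines 0.0674 and 1.54 CPM. Xist thus followed the macrophage genes across the colonies, but HPV-negative colony 1 held far more of it than the HPV-negative macrophage libraries that the labels give as the source of such colonies. Whether that library came from other animals was not tested.

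The strain labels were checked with genes chosen without the colonies. In lines and in macrophages alike, 50 genes were called higher in SCCVII and 57 lower by a log2 change of over 5. Of the 50, which are mostly processed copies of other genes, 48 were tested in colonies and all 48 were called higher in SCCVII. Their median was 0.0909, 0.0292 and 0.121 CPM in the HPV-negative colonies against 23.3 and 20.6 CPM in the SCCVII colonies. Of the 57, 47 were called lower in SCCVII colonies and none higher, with medians of 46.9, 55.3 and 57.2 CPM against 0.195 and 0.360 CPM. All 5 libraries, HPV-negative colony 1 included, therefore stood with the model on their label.

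The comparison of the groups asks how colonies of the 2 models differ. Of 15290 genes tested, 1646 were higher and 1606 lower in SCCVII colonies, 3252 in all or 21.3% of those tested (10.8% higher and 10.5% lower). The median log2 change of all genes was -0.01. Each library moved this count by over 1.5 times. Without HPV-negative colony 1 it was 5929, and 3159 of the 3252 kept their call and direction. Without HPV-negative colony 2 or 3 it was 759 or 1010, and without SCCVII colony 1 or 2 it was 909 or 757, with 1 SCCVII library then assumed to vary like the other group. Leaving out both first libraries, an alternative chosen after seeing the data, gave 7203 calls and kept 3042 of the 3252. Through every single library left out, 490 genes kept their call, and 3168 of the 3252 kept their direction.

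The changes were ranked among called genes that did not overlap and whose higher group held 10 CPM or more in each of its libraries. Predicted genes, clone names and pseudogene copies were left out of the ranking, and some of them changed by more than the genes named here. Among the 12 largest rises so ranked were genes of basement membrane, collagen uptake and retinoid transport. Crabp1, a carrier of retinoic acid (chromosome 9, 54764748 to 54773110), had no count in any HPV-negative colony and 439 and 392 CPM in the SCCVII colonies. This was at least 16900-fold higher, against a floor of 3 counts over the HPV-negative group (adjusted p = 0.0029). Its level was 298 CPM in the SCCVII line and 0.0577 CPM in the HPV-negative line, so the colonies followed their lines in direction. The colony difference exceeded that between lines by a log2 of 4.68 (adjusted p = 0.0076 by edgeR). That size is uncertain, as the HPV-negative colonies had no count. Nid1, a nidogen that links laminin and collagen in basement membranes (chromosome 13, 13437551 to 13512269), held 0.382, 1.58 and 0 CPM against 2100 and 2620 CPM, a log2 change of 11.83 ± 1.67 (adjusted p = 0.013). Mrc2, an endocytic receptor for collagen, held 0.164, 0.117 and 0.241 CPM against 543 and 429 CPM, a log2 change of 11.43 ± 0.40 (adjusted p = 0.0014). The groups did not overlap in any of these genes, as the ranking required, so the first libraries lay with the others of their group.

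Other members of these 12 were Tshz3, a zinc finger transcription factor, Ror2, a receptor for Wnt5a, Dhh, a hedgehog ligand, and Ndufa4l2, a mitochondrial protein induced by low oxygen. Tshz3 had no count in the HPV-negative colonies and 17.6 and 23.3 CPM in the SCCVII colonies, at least 835-fold higher. Ndufa4l2 held 0.0727, 0.205 and 0 CPM against 304 and 259 CPM. Pet2, Ang2, Eno1b and the class I gene H2-Q2 complete the 12. Eno1b, H2-Q2 and Ang2 have near-identical relatives among which reads can be split, so their levels are uncertain. H2-Q2 and Eno1b were as far apart between sorted macrophages, at 0.0307 against 81.1 CPM and 0.114 against 788 CPM.

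Serpinh1, the chaperone of procollagen in the endoplasmic reticulum (chromosome 7, 99345376 to 99353239), departed from its lines. It held 0.309, 0.0585 and 0.0603 CPM in the HPV-negative colonies and 632 and 738 CPM in the SCCVII colonies, a log2 change of 12.07 ± 0.83 (adjusted p = 0.0033). The HPV-negative line held 144 CPM and the SCCVII line 1310 CPM, a log2 change of 3.11. The colony difference exceeded that between lines by a log2 of 8.91 (adjusted p = 5.3e-05 by edgeR). The HPV-negative colonies were deposited apart from both lines, so culture and table cannot be told apart in this value. Of the 12 rises, Crabp1, Ndufa4l2 (log2 4.01, adjusted p = 0.012) and Ang2 (log2 6.54, adjusted p = 0.013) also exceeded their lines by this test. The rest of the 12 had no such call.

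The 12 largest falls by the same ranking were genes with at most 1 count in either SCCVII colony. Fmod, a small collagen-binding proteoglycan (chromosome 1, 134037254 to 134048277), held 96.8, 366 and 189 CPM in the HPV-negative colonies and no count in the SCCVII colonies, at least 4260-fold lower (adjusted p = 0.0088). Id4, an inhibitor of basic helix-loop-helix factors (chromosome 13, 48261228 to 48266026), held 43.7, 213 and 205 CPM against none, at least 3020-fold lower (adjusted p = 0.012). Bmp4, a ligand of the bone morphogenetic protein family (chromosome 14, 46383520 to 46390669), held 39.1, 50.9 and 39.6 CPM against none, at least 849-fold lower (adjusted p = 0.0027). HPV-negative colony 1 was the lowest of its group for Fmod, Id4 and Bmp4, and the groups did not overlap, as the ranking required. Nid2, the second nidogen, held 23.8, 24.1 and 19.8 CPM against none, the opposite of Nid1. Others of the 12 were Slitrk6, Setbp1, Pde1a, Gabrg1, Npy1r, Scg2 and Klhl4, with 16.8 to 185 CPM over the HPV-negative libraries and at most 0.0300 CPM in SCCVII colonies.

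**Figure D3:**
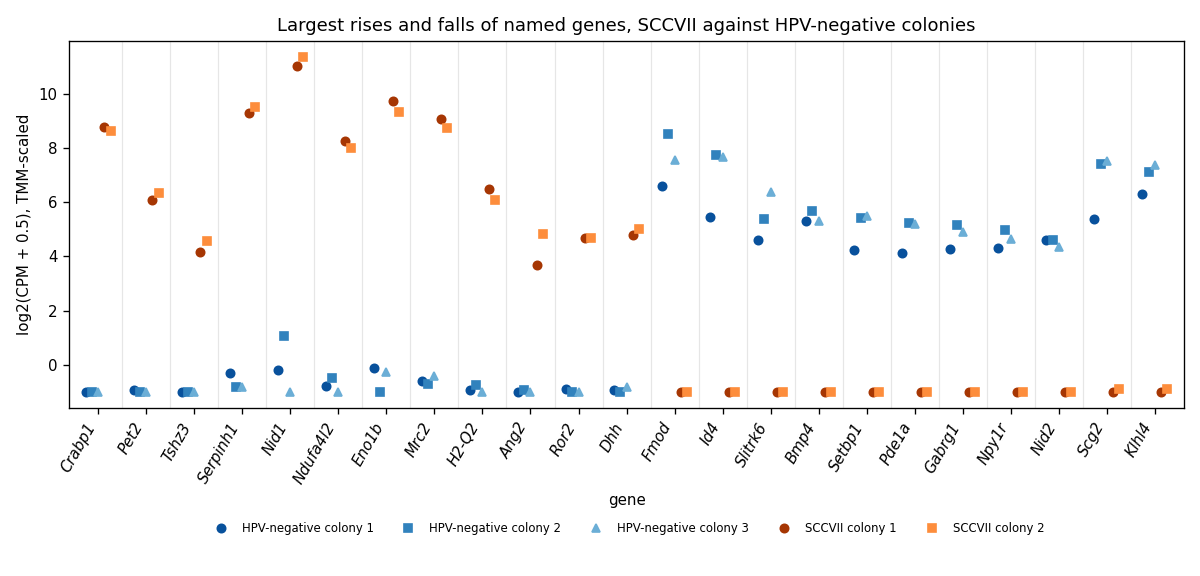
Level of the 12 largest rises and 11 of the 12 largest falls, without predicted genes and pseudogenes, in each of the 5 colony libraries, as log2 of TMM-scaled CPM plus 0.5, with 1 point per library. The ranking took only genes whose groups are apart, which therefore holds for all 23. Nid1 (at most 1.58 against 2100 and 2620 CPM) and Nid2 (19.8 to 24.1 CPM against none) lie in opposite directions.

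Stromal and matrix genes were examined as lists. Of 10 tested fibroblast markers, 3 were called higher and none lower in SCCVII colonies (median log2 change 1.67, beside -0.01 over all genes, of which 10.8% were called higher and 10.5% lower). Without SCCVII colony 1 these were 2 higher and 1 lower with a median of 0.78, without HPV-negative colony 1 they were 4 higher and 1 lower, without HPV-negative colony 2 or SCCVII colony 2 they were 2 higher, and without both first libraries 4 higher and 3 lower with a median of 0.78. Col1a2, a chain of type I collagen (chromosome 6, 4504814 to 4541544), held 4.74, 1.55 and 2.56 CPM against 922 and 653 CPM, a log2 change of 8.05 ± 0.61 (adjusted p = 0.0038). Its partner chain Col1a1 held 334, 389 and 195 CPM against 591 and 351 CPM and was not called (adjusted p = 0.29). Dcn, the proteoglycan decorin, and Pdgfra, a platelet-derived growth factor receptor, were the other called markers, with Pdgfra at 9.25, 22.0 and 12.7 CPM against 312 and 785 CPM. All 3 were also called higher in the SCCVII line. Of 17 matrix metalloproteinases and inhibitors tested, 3 were called higher and 2 lower, beside 10.8% and 10.5% of all genes. Without SCCVII colony 1 the counts were 1 and 1 and the median log2 change went from 0.65 to -0.33, without SCCVII colony 2 they were 1 and 0, without HPV-negative colony 1 they were 5 and 2, and without HPV-negative colony 2 or 3 they were 2 and 1. Mmp2, a gelatinase (chromosome 8, 92827291 to 92853420), held 5.04, 20.6 and 2.74 CPM against 811 and 685 CPM (log2 change 6.31 ± 0.98, adjusted p = 0.016). Timp3, a metalloproteinase inhibitor bound to matrix, held 1460, 3580 and 4090 CPM against 576 and 615 CPM and was called lower (adjusted p = 0.035).

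Epithelial markers that differed were lower in SCCVII colonies. Of 11 tested 5 were called lower and none higher (10.5% of all genes were called lower), with a median log2 change of -4.24, and 9 of the 11 did not overlap between the groups, all with SCCVII below (57.2% of all genes tested did not overlap). The called markers were Krt5, Krt6a, Krt14 and Krt17, keratins of basal and stratified epithelia, and Trp63, the transcription factor of basal epithelial cells. Krt14 (chromosome 11, 100203162 to 100207548) held 5.09, 7.22 and 9.41 CPM against no count, at least 142-fold lower. Trp63 held 17.9, 39.4 and 52.2 CPM against 0.820 and 1.26 CPM, a log2 change of -5.12 ± 0.64 (adjusted p = 0.010). Krt8, a keratin of simple epithelia, held 165, 179 and 213 CPM against 91.7 and 123 CPM without a call (adjusted p = 0.066), and Epcam was below 0.300 CPM in all 5 libraries. Without HPV-negative colony 1 the number called lower was 7, without HPV-negative colony 2 or 3 or SCCVII colony 1 it was 3, and without SCCVII colony 2 it was 2.

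Genes used to mark blood progenitors were split between the directions. Of 11 tested, 3 were called higher and 2 lower in SCCVII colonies, beside 10.8% and 10.5% of all genes, with 2 higher and 1 lower without HPV-negative colony 2, 3 and 3 without HPV-negative colony 1, and 2 and 2 without any other single library. Cd34, a sialomucin of progenitors, endothelium and some tumour cells (chromosome 1, 194938819 to 194961279), held 15.2, 17 and 23.5 CPM against 972 and 1110 CPM, a log2 change of 5.81 ± 0.29 (adjusted p = 0.0021). The SCCVII line itself held 970 CPM of Cd34 and its macrophages 3.34 CPM. Gata2, a transcription factor of progenitors, held 1.53, 1.40 and 1.63 CPM against 23.3 and 45.0 CPM, beside 3.29 and 42.0 CPM in the lines. Mecom and Hlf, transcription factors of stem cells, were called lower in SCCVII colonies, with Mecom at 5.27, 8.92 and 10.9 CPM against 0 and 0.0300 CPM, and were likewise called lower in the SCCVII line.

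Interferon-stimulated genes are the antiviral programme that type I interferon turns on. Of 27 tested, 7 were called lower and none higher (10.5% of all genes tested were called lower). The median log2 change was -2.69, and 18 did not overlap between the groups, all with SCCVII below, where 57.2% of all genes tested did not overlap. Oas2, a sensor of double-stranded RNA (chromosome 5, 120730333 to 120749853), held 73.4, 52.8 and 20.3 CPM against 0.391 and 0.870 CPM, a log2 change of -6.25 ± 0.83 (adjusted p = 0.012). Ifi27l2a (chromosome 12, 103442167 to 103443680) held 79.6, 46.4 and 27.6 CPM against 1.84 and 2.79 CPM, a log2 change of -4.46 ± 0.60 (adjusted p = 0.012). Ifit1, Ifit3, Ifit3b, Ifi44 and Rtp4 were the others called. Irf7, a transcription factor of the interferon response, was 267 CPM in HPV-negative colony 1, the library with the highest median of the 174 macrophage transcripts, and 7.97 to 22.3 CPM in the other 4, and was not called (adjusted p = 0.20). Without HPV-negative colony 1 the median was -1.21 and 10 members were called lower and 1 higher, while without HPV-negative colony 2 the number called lower was 4, without SCCVII colony 1 it was 1 and without SCCVII colony 2 it was 2. The part of the macrophage RNA of HPV-negative colony 1 in these values was not tested.

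Between lines 14 of 24 tested were called lower and 4 higher in SCCVII (median -0.95, where 32.8% of all 13922 genes tested were called lower). Between sorted macrophages 12 of 28 were called higher and 2 lower in SCCVII (median 0.39, where 17.7% of 13641 were called higher). The difference between the colony and macrophage contrasts, tested as an interaction, was called negative for 13 of the 28 members and positive for none, beside 10.6% of all 16238 genes called negative. That between the colony and line contrasts was called for 3 of 27, all negative, beside 9.83% of 15995. The limits of these interaction tests are given below.

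**Figure D4:**
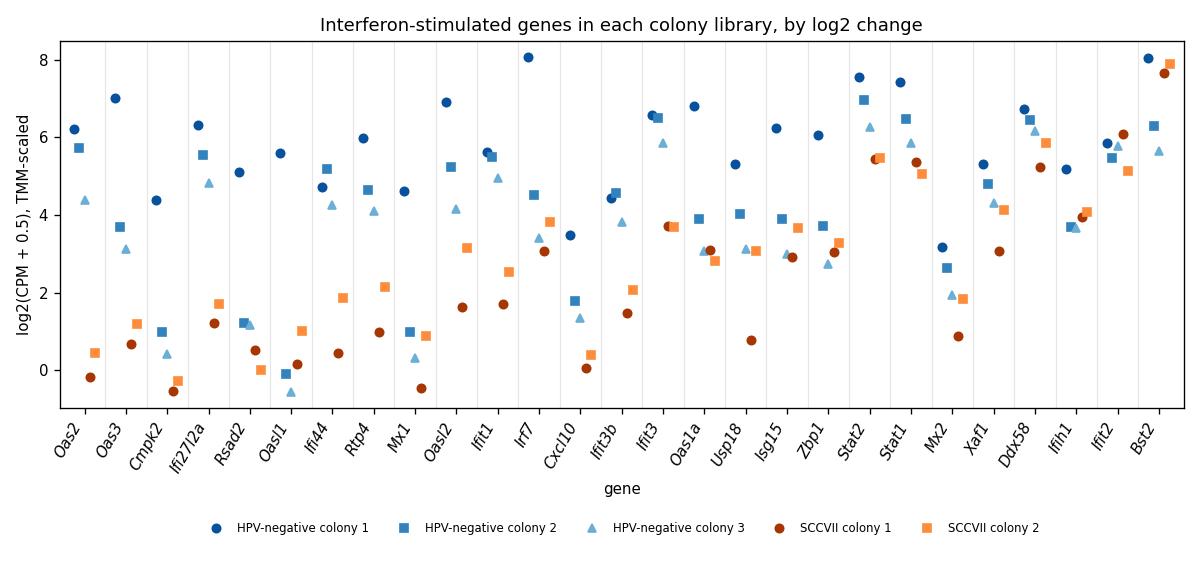
Level of the 27 tested interferon-stimulated genes in each of the 5 colony libraries, as log2 of TMM-scaled CPM plus 0.5, ordered from the largest fall to the largest rise. Oas2 and Ifi27l2a are lower in both SCCVII colonies than in all 3 HPV-negative colonies, while Irf7 is high in HPV-negative colony 1 alone, at 267 CPM.

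Genes of glycolysis and of the response to low oxygen changed in both directions. Of 22 tested, 5 were called higher (Slc2a1, Pfkl, Tpi1, Adm and Car9) and 2 lower (Gapdh and Vegfa), beside 10.8% and 10.5% of all genes, with a median log2 change of 0.69. Without HPV-negative colony 1, 10 were called higher and 2 lower. Without HPV-negative colony 2 or 3 or SCCVII colony 1 the counts were 3 and 1, and without SCCVII colony 2 they were 3 and 0. Slc2a1, the glucose transporter GLUT1, held 212, 166 and 155 CPM against 853 and 792 CPM (log2 change 2.21 ± 0.23, adjusted p = 0.0071). Adm, the vasodilator peptide adrenomedullin (chromosome 7, 110627661 to 110629820), held 2.53, 2.08 and 2.05 CPM against 186 and 80.2 CPM (log2 change 5.91 ± 0.44, adjusted p = 0.0037). Car9, a carbonic anhydrase at the cell surface (chromosome 4, 43506966 to 43513729), held 36.2, 81.7 and 50.2 CPM against 709 and 526 CPM (log2 change 3.47 ± 0.40, adjusted p = 0.0092). Vegfa, the main angiogenic growth factor (chromosome 17, 46016993 to 46032369), went the other way, with 395, 662 and 461 CPM against 162 and 187 CPM (log2 change -1.53 ± 0.30, adjusted p = 0.026). The SCCVII line held more Vegfa than the HPV-negative line, 472 against 194 CPM, and the difference between the contrasts was called (log2 -2.70, adjusted p = 0.00051). Gapdh has many processed copies among which reads are split, so its value is uncertain.

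Lysosomal cathepsins are the proteases of the degradative compartment. Of 12 tested, 4 were called higher (Ctsa, Ctsb, Ctsk and Ctsl) and 2 lower (Ctse and Ctsh), beside 10.8% and 10.5% of all genes. Most of these calls were lost without a single library: the counts were 1 and 0 without HPV-negative colony 2 or 3, 1 and 1 without SCCVII colony 1 and 2 and 0 without SCCVII colony 2. Ctsl, cathepsin L (chromosome 13, 64359337 to 64370890), held 1700, 1340 and 1830 CPM against 14200 and 17200 CPM, a log2 change of 3.27 ± 0.32 (adjusted p = 0.0069). By TPM, which accounts for gene length and lets genes be compared within a library, Ctsl stood at 10200 and 14100 in SCCVII colonies 1 and 2 and ranked 3 among all genes of the latter. Between sorted macrophages it was lower in SCCVII, at 476 against 1080 CPM, and the difference between the contrasts was called (log2 4.47 ± 0.28, adjusted p = 6.6e-05). That SE comes from a fit that pooled the colonies with the less variable macrophages. Ctsh held 401, 612 and 541 CPM against 142 and 81.4 CPM. Ctsk, given above, was far higher in SCCVII colony 1 than in SCCVII colony 2.

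Among other groups, 3 of 17 lipid handling genes were called higher and none lower, near the share called over all genes (10.8% higher and 10.5% lower). No member was called without HPV-negative colony 2 or 3 or without SCCVII colony 1, and without the last of these the median log2 change went from 1.46 to -0.17. Lgals3, the lectin galectin-3 and 1 of the 3, held 364, 246 and 267 CPM against 2600 and 1190 CPM (log2 change 2.70 ± 0.41, adjusted p = 0.015). Of 16 genes of iron, haem and the oxidative stress factor NRF2, 3 were called higher and 2 lower, also near that share. The counts were 7 and 3 without HPV-negative colony 1, 0 and 2 without HPV-negative colony 2, 1 and 2 without HPV-negative colony 3, 1 and 1 without SCCVII colony 1 and 0 and 0 without SCCVII colony 2. Nqo1, a quinone reductase, held 5.63, 1.58 and 1.66 CPM against 71.4 and 188 CPM. Gclm, a subunit of the enzyme that starts glutathione synthesis, held 138, 273 and 299 CPM against 33.0 and 31.8 CPM. Tfrc, the transferrin receptor, held 83.3, 58.4 and 66.5 CPM against 16.7 and 9.48 CPM. Nqo1 was called higher, and Gclm and Tfrc lower.

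Of 10 tested growth factors of myeloid cells and their receptors, 2 were called higher and none lower, near the share called over all genes (21.3% in either direction), and both are ligands of Csf1r. Neither call held without HPV-negative colony 2 or 3, 1 member was called without SCCVII colony 1 or 2, and without SCCVII colony 1 the median log2 change went from 1.34 to -0.95. Csf1 held 198, 269 and 269 CPM against 1050 and 440 CPM (log2 change 1.60 ± 0.41, adjusted p = 0.047), and Il34 held 35.1, 31.1 and 30.5 CPM against 60.2 and 104 CPM (log2 change 1.35 ± 0.28, adjusted p = 0.029). Both lines carried Csf1, at 508 and 809 CPM. Ccl8, a chemokine for monocytes, held 5.11, 5.91 and 7.36 CPM against 323 and 37.9 CPM and was called higher (log2 change 4.89 ± 0.90, adjusted p = 0.023).

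Of 17 classical inflammatory genes tested, 1 was called higher (Socs3, an inhibitor of cytokine signalling) and 1 lower (Il12a, a chain of interleukin 12). Over all genes, 10.8% were called higher and 10.5% lower. Without HPV-negative colony 1 the counts were 3 and 3, and the median log2 change went from -1.14 to 1.55. Without HPV-negative colony 2 or 3 the counts were 0 and 0. Nos2, the inducible nitric oxide synthase, held 2.20, 1.90 and 0.543 CPM against 60.6 and 3.51 CPM (adjusted p = 0.062). Arg1, the arginase of alternative activation, held 49.7, 56.2 and 12.8 CPM against 18.6 and 29.9 CPM (adjusted p = 0.47), and Cd274, the gene of PD-L1, 32.4, 19.3 and 10.2 CPM against 148 and 16.4 CPM (adjusted p = 0.18). Apoe, abundant in HPV-negative macrophages at 9260 CPM, was at most 44.8 CPM in any colony. Of 22 mitotic genes 1 was called lower (Kif11) and of 28 DNA replication genes 1 was called lower (Tyms), beside 10.5% of all genes. No member of either list was called without HPV-negative colony 2 or 3. Without HPV-negative colony 1, 3 DNA replication genes were called higher and 3 lower. Mki67, the proliferation antigen, held 114, 23.4 and 20.3 CPM against 30.1 and 14.5 CPM, highest in HPV-negative colony 1 (adjusted p = 0.36). The median log2 change of the mitotic genes was -1.15, and -0.04 without that library, when 4 were called lower.

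The same contrast between models was then set beside the colony contrast in libraries that it does not use. Between lines, 8818 of 13922 genes were called (63.3%), and between sorted macrophages 4881 of 13641 (35.8%). Of the 3252 genes called in colonies, 1987 (61.1%) were called in the same direction between lines and 203 (6.24%) in the opposite one. Over all 15290 genes tested in colonies the share called in the same direction between lines was 39.7%. Between macrophages 717 of the 3252 (22.0%) were called in the same direction and 278 (8.55%) in the opposite one. Over all genes tested in colonies these shares were 16.5% and 13.3%. Of the colony calls 28.9% were not tested between macrophages, beside 15.1% of all genes tested in colonies. As a description across the 12256 genes tested in all 3, the colony log2 changes had a Pearson correlation of 0.67 with those of lines and of 0.44 with those of macrophages. The 2 references had 0.41 with each other. By rank the agreement was weaker, with Spearman correlations of 0.43, 0.11 and 0.18 in the same order. Each model shares its strain across the 3 kinds of sample, and no library enters more than 1 of these contrasts.

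**Figure D5:**
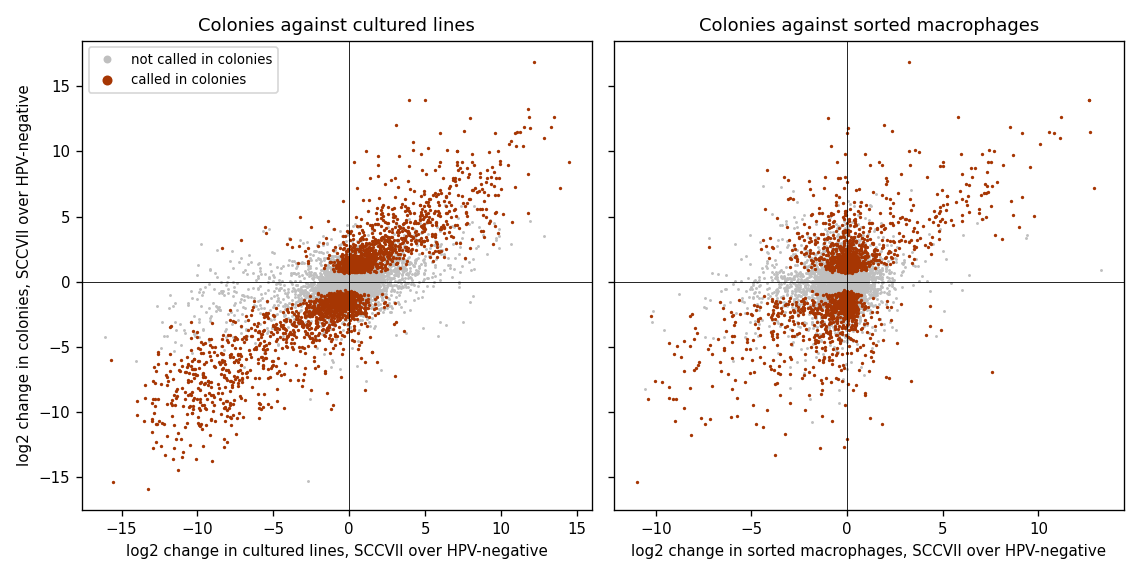
Log2 change of each gene in colonies (vertical axis) against its log2 change in cultured lines (left) and in sorted macrophages (right), SCCVII over HPV-negative MEER in each, with 1 point per gene and the genes called in colonies in colour. The points lie closer to a diagonal for lines, where the Pearson correlation over 12256 genes was 0.67, than for macrophages, where it was 0.44. The Spearman correlations were 0.43 and 0.11.

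The interactions gave the test of these differences, with limits. Each fit pooled the spread of colonies and reference, at 40.2% with macrophages and 37.2% with lines, below the 51.9% of colonies alone. Errors of the colony part can therefore be too small and the calls too many. The HPV-negative colonies were also the only libraries from their table in each fit. The colony difference and the macrophage difference were called unequal for 3921 of 16238 genes (24.1%), and the colony and line differences for 3708 of 15995 (23.2%). Of the 3252 colony calls, 1290 were among the latter. Cebpd, a transcription factor of acute inflammation, was lower in the SCCVII line (0.844 against 10.8 CPM) but higher in SCCVII colonies, with 22.0, 13.3 and 16.6 CPM against 64.5 and 154 CPM. Mt1, a metallothionein that binds zinc, held 151 and 145 CPM in the HPV-negative and SCCVII lines, and 58.0, 31.0 and 23.9 CPM against 433 and 664 CPM in colonies (log2 change 3.87 ± 0.46, adjusted p = 0.0094). Il13ra2, a decoy receptor for interleukin 13, was at most 0.117 CPM in HPV-negative colonies and 23.2 and 18.3 CPM in SCCVII colonies, and at most 0.154 CPM on average in either line or macrophage group. Gbp4, an interferon-induced GTPase, held 94.0, 207 and 151 CPM against 1.29 and 3.90 CPM, beside 3.32 and 6.03 CPM in the lines and 61.3 and 26.7 CPM in macrophages. These 4 genes were chosen after their values were seen.

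Some genes set the HPV-negative colonies apart from all 20 other libraries, which are also those of the other table. In 2 genes, Mrpl23 and Rps27, ribosomal proteins of the mitochondrion and the cytosol, their highest level was under 10% of the lowest in the other 20. Mrpl23 held 0.945, 0.556 and 0.543 CPM against 11.3 to 33.7 CPM, and Rps27 at most 1.05 CPM against 24.5 to 102 CPM. In 15 genes the other 20 libraries were under 10% of the lowest HPV-negative colony. Ces1f, a carboxylesterase, held 283, 695 and 938 CPM and at most 3.82 CPM elsewhere, and Sprr2a2, a cornified envelope protein of stratified epithelium with near-identical copies, 167 to 237 CPM and at most 6.25 CPM elsewhere. Others were Igfbp5, Tnn, Muc1, Crh, Scg2 and Gabrg1. The other 20 libraries include the line and macrophages of the HPV-negative model and the SCCVII colonies. For these genes the combination of model and culture cannot be told apart from the table.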

How the data were processed

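RNA was measured in 23 libraries, made with a stranded mRNA kit per the labels' protocols. The authors deposited expected counts (estimated reads per gene, not always whole) and TPM, which scales for gene length, as the column headers of RSEM name them. On builds mm10 and GRCm38, RSEM 1.3.0 and STAR 2.5.3a are listed per the submitters' processing notes, with FastQC and MultiQC. The strand setting and the annotation release were not given in the sources used here, so overlapping and antisense genes are uncertain, as are near-identical copies. No read filter is stated.

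Here counts were rounded (13.1% of values were not whole). Of 36793 identifiers 35243 (95.8%) matched GENCODE M21, whose GRCm38 coordinates are 1-based. Libraries were grouped by labels. The 5 colony libraries were fitted alone, as were the 6 macrophage and the 6 line libraries, and 11 libraries for each interaction, with edgeR 4.0.16 (R 4.3.3): TMM, filterByExpr (minimum count 10, total 15), prior count 0.125, quasi-likelihood test, two-sided, Benjamini-Hochberg adjustment at 0.05 over all genes tested. Adjusted p-values without another name are from this test. Folds against a group without counts use a floor of 3 counts over that group. Floors cover counting error only. Levels were averaged over replicates only within a group.

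Members and lists were chosen with earlier results of these data known. Named genes are the 12 largest rises and falls among called genes that do not overlap and reach 10 CPM throughout the higher group, leaving out predicted genes, clone names and pseudogene (-ps) symbols, up to 2 rises and 2 falls of each list, a set of control genes, and the 4 largest interaction values each way. Not all are printed, and some results are not reported here. The Y-linked and mitochondrially encoded genes, and Flt3l, were not analysed here. The interaction with lines was added after seeing the data, as were the line and macrophage transcript sets and the strain set.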

Additional observations from a re-analysis of the deposited data

Results flagged for a closer look

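The contrast between models differed between colonies and other samples, by a test of the difference itself, for 3921 genes (colonies against macrophages) and 3708 genes (colonies against lines). These fits lend the colonies the smaller spread of the references, so the counts may be too high. The largest positive differences from macrophages were Crabp1 (log2 13.47), Tshz3 (13.41), Nid1 (11.74) and Cd248, a surface protein of stromal cells (11.56, with 0.582, 0.819 and 0.603 CPM in HPV-negative and 37.3 and 28.8 CPM in SCCVII colonies). The largest negative ones were Elobl (-14.63), Nid2 (-12.40), Ndnf (-11.69) and Chst1, a sulfotransferase (-9.91). In Nid2 the macrophages were alike, at 79.5 and 72.3 CPM, while the SCCVII colonies had no count. Fitted sizes of genes without counts in a group depend on the prior count. No group had the 4 libraries needed to look for a single outlying one.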

How the results depend on the processing

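The colony count of 3252 became 5780 with DESeq2 1.42.0, 1287 with a replicate block, 6554 and 8385 when the spread was estimated over 11 and 23 libraries, 1909 when tested against a fold of 1.5 and 7203 without both first libraries, and ranged from 757 to 5929 over single libraries left out. Size factors of DESeq2's kind within edgeR, upper-quartile factors and no filter gave 3213, 3124 and 2781. The share called higher stayed between 43.8% and 51.7% in all of these, and the median log2 change of all genes was -0.14 with DESeq2, -0.12 with upper-quartile factors and -0.17 without a filter, beside -0.01. The colony-minus-macrophage count of 3921 became 11 with the block and 2535 to 6949 over libraries left out (6949 without HPV-negative colony 1, and 2578, 2535 and 2612 without SCCVII macrophage replicates 1, 2 and 3), and the colony-minus-line count of 3708 became 1176 and 2175 to 5886 (5886 without that library, 2463 without HPV-negative line replicate 2, and 2214, 2223 and 2175 without SCCVII line replicates 1, 2 and 3). Macrophage and line counts stayed within 1.5 times of their main value throughout. Replicate numbers are shared by 2 pairs only, whose deviations correlated at 0.38 and 0.23. Pairs of unlike number ran from -0.40 to 0.40. With only 2 SCCVII libraries, deviations from their mean are mirror images, so each correlation comes with its opposite. These values therefore cannot decide whether the numbers carry a link. Nothing in the labels links libraries of the same number, so the block is no paired design.

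Of 103 named genes followed, 85 were called. None of these 85 changed direction, but 33 and 28 lost their call without HPV-negative colony 2 and 3, 32 and 39 without SCCVII colony 1 and 2, 3 without HPV-negative colony 1, 20 with the block and 13 against a fold of 1.5. Genes without a call did: over single libraries left out the log2 change ran from -3.81 to 5.22 for Ptprc, -4.96 to 2.68 for Itgam, -6.38 to 5.66 for Adgre1, -4.28 to 4.11 for Csf1r, -1.82 to 4.04 for Lyz2, -1.90 to 0.03 for Mki67, -2.04 to 5.85 for Mrc1, -0.36 to 2.76 for Cd274, -1.50 to 2.96 for H2-Ab1, 0.00 to 0.72 for Tlr4, -1.81 to 0.00 for Apoe and -2.31 to 7.89 for Xist. Without both first libraries Itgam was 1.20, Adgre1 1.86, Csf1r 1.79 and Tlr4 -0.13, and with the block H2-Ab1 was -0.04.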
